A study of Mus musculus with 28 samples.

Results

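Adult hepatocytes and embryonic fibroblasts are the end points of a study that turned one cell type toward the other, and their 4 libraries, of 28 in the series, were compared here across all genes. The 2 hepatocyte libraries (Hep) came from C57BL/6 livers at 10 weeks of age, dissociated with collagenase in 2 steps. The 2 fibroblast libraries (MEF) came from C57BL/6 embryos taken 13.5 days post coitum. The labels name no virus or added factor for either group. The other 24 libraries were fibroblasts that had received Hnf4alpha and a Foxa factor. They entered the estimate of spread, the filter on low counts and the scaling of library size. Some of them also served to choose genes where stated. The labels do not say how many animals, embryos or passages stand behind a library, so p-values measure the spread between libraries, which may be technical. Cell type, age, organ and time in culture changed together between the groups and cannot be told apart.

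Hepatocytes are epithelial cells of the liver. They secrete most plasma proteins, store and release glucose, dispose of nitrogen, make bile and clear foreign compounds. Embryonic fibroblasts are mesenchymal cells that grow attached in culture, divide, pull on their substrate and lay down collagen-rich matrix. The fibroblast is a common starting cell for direct conversion, in which transcription factors impose the programme of another cell type.

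Assigned reads numbered 15658619 and 14592820 in Hep and 22178268 and 22039143 in MEF. Levels are CPM, counts of a gene per 1000000 reads, on a library size scaled by the trimmed mean of M-values (TMM). The scale factors were 0.5217 and 0.5503 in Hep and 0.9417 and 0.9538 in MEF, so CPM in Hep are nearly doubled relative to the share of reads, and shares are given where the difference matters. Of 23712 gene rows, 16499 passed the filter on low counts and were tested. The filter used all 28 libraries, and 322 of the tested genes had no count in Hep or MEF. Calls required p below 0.05 in edgeR's 2-sided quasi-likelihood test after Benjamini-Hochberg adjustment over all of these genes, and log2 fold changes are Hep over MEF, with their standard error.

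Of the genes tested, 4005 (24.3%) were called higher in Hep and 5382 (32.6%) lower, 56.9% together. A call with a fitted difference of 32-fold or more was made for 1122 genes (6.8%) upward and 1757 (10.6%) downward. The 2 libraries of one group lay entirely above the 2 of the other in 13471 genes (81.6%). The median log2 fold change was 2.51 among genes called higher, -2.89 among genes called lower and -0.29 over all genes tested. With genes at 0 counts in one group set at their lower bound, those medians were 2.50, -2.48 and -0.15. Genes called higher made up 42.7% of calls. On library size alone they made up 23.6% and in limma on log2(FPKM + 1) 24.4%, and the median of all genes moved by -0.82 and -0.43, so calls near no change depend on the scaling.

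**Figure D1:**
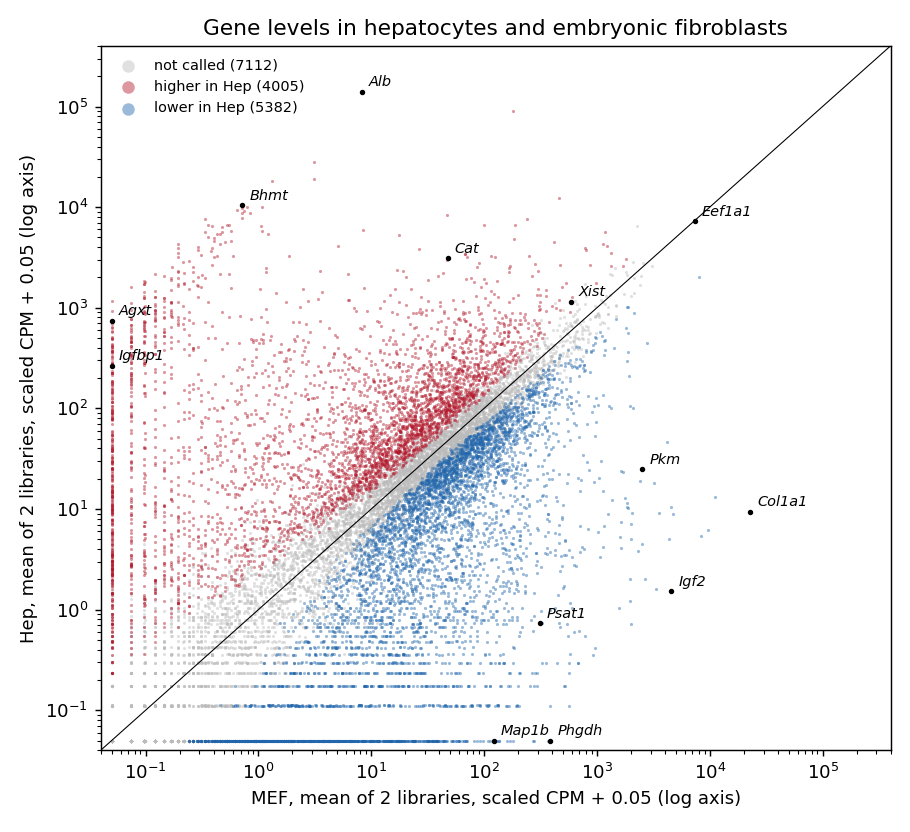
Mean CPM of each tested gene in MEF (horizontal, log axis) and Hep (vertical, log axis), with 0.05 added so that genes at 0 appear, coloured by call. Genes called higher (4005) and lower (5382) flank a band of 7112 genes not called, and columns of points at the left and bottom edges are genes with 0 or a few counts in one group.

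Reads were concentrated in fewer genes in Hep. Alb, which encodes serum albumin, took 7.77% and 7.21% of all reads in the Hep libraries. The leading gene in MEF was Col1a1, a chain of type I collagen, at 2.40% and 1.94%. The 1000 most abundant genes held 72.2% and 71.8% of reads in Hep and 56.2% in each MEF library. It took 216 and 224 genes to reach 50% of reads in Hep and 711 and 712 in MEF. Without TMM scaling, 11445 and 11433 genes reached 1 CPM in Hep, and 12583 and 12725 in MEF. With 2 libraries a group no exact permutation test of such a summary can pass 0.05, so these are descriptions. The libraries of each group lay close together, and the groups did not overlap.

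**Figure D2:**
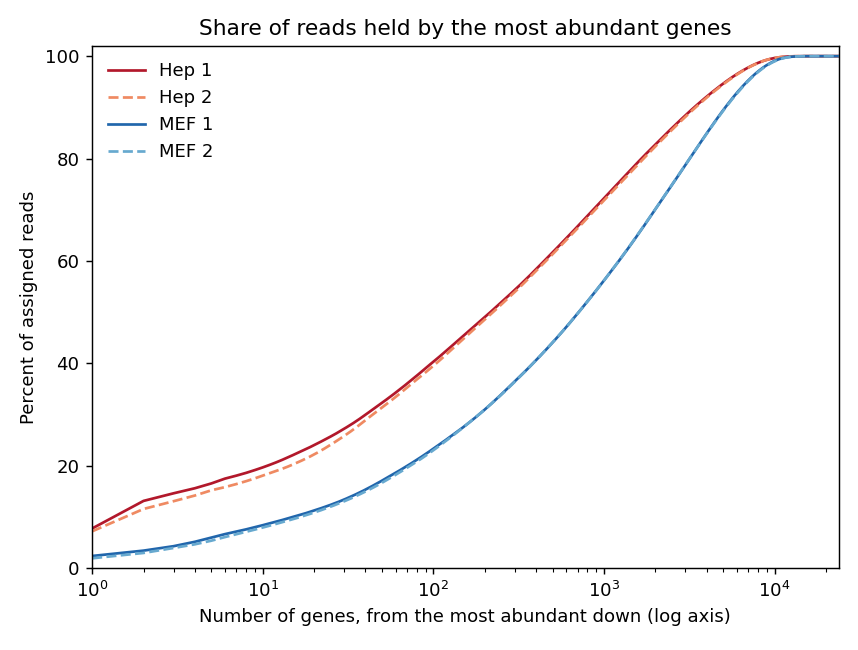
Percent of assigned reads (vertical) held by the most abundant genes, counted from the top down (horizontal, log axis), 1 line per library. At 1000 genes the Hep lines stand at 72.2% and 71.8% and both MEF lines at 56.2%.

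The labels were checked against marker genes. All 14 hepatocyte markers were higher in Hep and together held 12.25% and 12.17% of reads in Hep against 0.00134% and 0.00157% in MEF. They include Alb at 148958 and 131113 CPM in Hep and 7.8 and 8.52 CPM in MEF, and Hnf4a, a hepatic nuclear receptor, at 1071 and 942 CPM in Hep and 0 and 0.19 CPM in MEF. Of 13 fibroblast markers, 12 were lower in Hep. Col1a1 stood at 25472 and 20378 CPM in MEF and 10.8 and 7.97 CPM in Hep, and the surface glycoprotein Thy1 at 150.0 and 413 CPM in MEF and 0.245 and 0.125 CPM in Hep. The exception was Dcn, the small proteoglycan decorin, at 12.4 and 129 CPM in MEF and 49.6 and 29.6 CPM in Hep, where the MEF libraries lay on either side of the Hep libraries and the gene was not called.

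Markers of other liver cells were detectable in Hep. Of 17 tested Kupffer cell and macrophage markers, 6 were higher in Hep and none lower, among them the Kupffer cell lectin Clec4f at 60.6 and 46.3 CPM and Cd5l at 119 and 83.1 CPM. Of 18 endothelial markers 10 were higher, such as the sinusoidal lectin Clec4g at 48 and 40.5 CPM. Lrat, the retinyl ester synthase of stellate cells, stood at 12.5 and 6.1 CPM. Of 14 stellate markers 5 were higher, 1 was lower and 8 were not called, and without either MEF replicate 3 were higher. Clec4f, Clec4g and Lrat had no count in MEF, and Cd5l stood at 0.144 and 0.571 CPM there. These lists held small shares of the Hep reads: 0.0350% and 0.0330% for Kupffer cells and 0.0190% and 0.0184% for endothelium. Stellate markers held 0.0135% and 0.0104% of reads in Hep, below the 0.0356% and 0.0551% in MEF. Cholangiocyte markers held 0.00266% and 0.00263% of reads in Hep, below the 0.105% and 0.133% in MEF. Of 12 tested, 2 were higher in Hep and 5 lower. The macrophage list also separated the MEF libraries, at 0.00331% in MEF replicate 1 and 0.0386% in MEF replicate 2. Without MEF replicate 2, 12 of the Kupffer cell and macrophage markers were called higher in place of 6. In bulk RNA, fewer cells of a type and less RNA per cell cannot be told apart, and the part of these cells in other results was not tested.

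Liver transcripts were also present in MEF as a trace. There were 42 genes at or above 500 CPM without TMM scaling in both Hep libraries that had at most 5 counts over the 6 libraries taken 48 h after infection with full-length factors. In MEF replicate 1, 37 of them had at least 1 count, and in MEF replicate 2, 38 had. Pooled over the 42 genes, MEF replicate 1 held 9.46 reads for every 100000 in Hep at equal depth, and MEF replicate 2 held 12.8. Fabp1, the liver fatty acid binding protein, gave 9.89 and 12.7 per 100000, and Mat1a, which makes S-adenosylmethionine in liver, 12.8 and 12.8. Across genes with a count, the logarithm of the level in MEF followed that in Hep with r of 0.715 over 37 genes and 0.819 over 38, which are genes of the same libraries and not independent replicates. All 42, chosen for their Hep level, were called higher, at log2 fold changes from 12.91 to 18.14. The part of these counts in the size of the folds, and where they came from, was not tested.

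The largest rises were genes with no count in MEF, for which only a lower bound of the fold can be given. Acsm1, a mitochondrial medium-chain acyl-CoA synthetase, stood at 1385 and 963 CPM, at least 16402-fold higher. Agxt, the peroxisomal enzyme that removes glyoxylate, stood at 824 and 669 CPM (at least 10422-fold). Kmo, which hydroxylates kynurenine on the route from tryptophan to NAD, stood at 741 and 633 CPM. Dpys, which opens the rings of dihydropyrimidines, and F9, coagulation factor IX, reached 554 and 704 and 431 and 538 CPM in turn. In each of these genes both Hep libraries lay far above the floor of 3 counts, and edgeR's adjusted p ran from 1.1e-07 for Acsm1 to 2.34e-05 for Dpys. In total 190 tested genes had no count in MEF and a mean of at least 5 CPM in Hep.

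In the opposite direction, 296 genes had no count in Hep and at least 5 CPM in MEF. Penk, which encodes the precursor of the enkephalins, stood at 611 and 170.3 CPM in MEF, at least 2109-fold higher than in Hep. Phgdh, the first enzyme of serine synthesis, stood at 392 and 374 CPM (at least 2069.8-fold). Fzd2, a Wnt receptor, and Rspo2, a secreted amplifier of Wnt signals, stood at 307 and 434 and 199.8 and 158 CPM. Vcan, the matrix proteoglycan versican, stood at 215 and 341 CPM, and Map1b, a microtubule protein best known from growing axons, at 137 and 106 CPM. The MEF libraries agreed within 2-fold for Phgdh, Fzd2, Rspo2, Vcan and Map1b. They did not for Penk, where MEF replicate 1 was the higher, nor for the heparin-binding cytokine Ptn at 87.4 and 451 CPM, where replicate 2 was.

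Promoters of the 2 sets of genes differed in base composition and in short motifs. RefSeq promoters (GRCm38.p6, 250 bases before to 50 after a gene's start) were matched to 12753 of the tested genes. The 2 sets were genes called with a fitted difference of 32-fold or more. The fitted fold has no bound where a group has no count, as in 897 genes called lower and 306 called higher. Medians of 5 CpG pairs and 52.0% G + C were found in the 1028 promoters of the higher set. The 1592 promoters of the lower set had medians of 16 and 60.7%, and all promoters of tested genes 18 and 59.7%. The whole table of 32851 promoters, which also holds genes not tested, had medians of 7 and 52.7%, close to the higher set. Motif shares are given in the order higher set, lower set, all tested genes and whole table. They count promoters, of which the higher set has 1028 for 834 genes and the lower set 1592 for 1260. A gene with several starts thus counts more than once, and near-identical members of a family count separately. The letters GTTAAT, 1 arm of the palindrome bound by HNF1, occurred on either strand in 12.2%, 3.58%, 4.98% and 7.10%. TTGCNNAA, a pattern bound by C/EBP factors, occurred in 16.7%, 7.79%, 9.18% and 10.8%. TGTTTAC, bound by FOXA factors, occurred in 5.45%, 1.88%, 2.69% and 3.65%. TATAAA, the TATA box, occurred in 17.8%, 9.48%, 8.65% and 13.6%. GGGCGG, the GC box bound by SP and KLF factors, occurred in 29.4%, 57.9%, 57.5% and 35.7%. For both the TATA box and the GC box the lower set lay close to all tested genes, and the higher set stood apart from them. Other motifs scored went both ways. GGAATG, the TEAD site, occurred in 18.4%, 14.5%, 12.9% and 14.7%, and TGANTCA, the AP-1 site, in 9.63%, 6.28%, 5.81% and 7.81%. CCGGAAGT, the ETS site, was least frequent in the higher set, at 1.17%, 1.70%, 6.61% and 3.89%. These shares describe letters in a window and not binding, and the part of base composition in them was not tested.

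Alb and the fibrinogen chain genes Fga and Fgb, all higher in Hep, are shown because each holds both the HNF1 and the C/EBP letters. They were chosen for display after their values were seen. The 250 bases before the start are given 5′ to 3′, with the matches to GTTAAT and TTGCNNAA on either strand in capitals. The Alb stretch is chr5:90460620-90460869 on the plus strand, that of Fga is chr3:83025903-83026152 on the plus strand and that of Fgb is chr3:83049864-83050113 on the minus strand.
Alb: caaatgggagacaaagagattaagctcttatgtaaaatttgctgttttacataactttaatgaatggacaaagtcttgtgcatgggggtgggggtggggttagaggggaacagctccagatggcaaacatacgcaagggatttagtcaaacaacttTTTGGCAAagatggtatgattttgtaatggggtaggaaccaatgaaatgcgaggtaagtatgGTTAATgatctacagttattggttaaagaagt
Fga: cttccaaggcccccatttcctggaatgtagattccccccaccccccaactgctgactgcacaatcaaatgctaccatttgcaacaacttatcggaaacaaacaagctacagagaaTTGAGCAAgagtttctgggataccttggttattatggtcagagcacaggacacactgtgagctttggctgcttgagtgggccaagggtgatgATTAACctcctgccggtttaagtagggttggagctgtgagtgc
Fgb: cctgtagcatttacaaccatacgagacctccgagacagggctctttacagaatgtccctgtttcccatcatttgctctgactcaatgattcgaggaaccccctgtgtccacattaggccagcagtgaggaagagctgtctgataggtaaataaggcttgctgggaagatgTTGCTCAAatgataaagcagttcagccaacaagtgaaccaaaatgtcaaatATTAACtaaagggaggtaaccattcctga
Each of the 3 stretches holds 1 match to each motif. Fga stood at 5720.4 and 7538 CPM in Hep and 0.575 and 0.428 CPM in MEF, and Fgb at 9322 and 10357 CPM in Hep and 0.527 and 0.809 CPM in MEF.

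The next stretches precede the second listed start of Pklr, the liver and red cell pyruvate kinase, and the first listed start of Pkm, its widely expressed relative, together with Col1a2, the second chain of type I collagen. Matches to CCAAT, the NF-Y box, are in capitals in all 3, with TATAAA for Pklr and GGGCGG for Pkm and Col1a2. They are shown to set a liver promoter beside those of a sister gene and a matrix gene, and were also chosen after values were seen. Pklr is chr3:89136373-89136622 on the plus strand, Pkm is chr9:59656326-59656575 on the plus strand and Col1a2 is chr6:4505368-4505617 on the plus strand.
Pklr: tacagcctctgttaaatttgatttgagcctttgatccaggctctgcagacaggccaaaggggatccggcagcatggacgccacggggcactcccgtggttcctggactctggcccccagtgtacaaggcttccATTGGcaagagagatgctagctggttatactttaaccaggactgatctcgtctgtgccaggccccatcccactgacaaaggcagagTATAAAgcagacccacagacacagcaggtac
Pkm: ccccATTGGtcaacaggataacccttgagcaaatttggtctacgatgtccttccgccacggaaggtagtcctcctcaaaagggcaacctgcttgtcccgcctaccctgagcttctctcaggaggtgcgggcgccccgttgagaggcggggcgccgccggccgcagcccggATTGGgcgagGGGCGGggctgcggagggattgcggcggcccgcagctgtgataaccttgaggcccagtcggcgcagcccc
Col1a2: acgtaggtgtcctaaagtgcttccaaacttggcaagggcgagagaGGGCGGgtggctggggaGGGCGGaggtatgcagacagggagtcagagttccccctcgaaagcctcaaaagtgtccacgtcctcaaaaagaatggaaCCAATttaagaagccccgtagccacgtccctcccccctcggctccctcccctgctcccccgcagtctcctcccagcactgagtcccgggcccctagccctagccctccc
The Pklr stretch has 5 CpG pairs, the Pkm stretch 21 and the Col1a2 stretch 11. The other listed start of Pklr has no match to TATAAA or CCAAT in its 250 bases, and that of Pkm none to GGGCGG or CCAAT, so the letters differ between starts of 1 gene. CCAAT was found in 37.4% of all promoters in the table. Pklr stood at 430.4 and 302 CPM in Hep and had no count in MEF, while Pkm stood at 3012 and 2007 CPM in MEF and 26.3 and 23.4 CPM in Hep and Col1a2 at 9202 and 10173 CPM in MEF and 5.51 and 6.73 CPM in Hep.

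Most genes of the respiratory chain and ATP synthase were higher in Hep. The respiratory chain passes electrons from nutrients to oxygen through 4 complexes, and ATP synthase uses the proton gradient they build. Of 36 complex I subunits and assembly members tested, 33 were called higher and none lower (median log2 fold change 1.64, against -0.29 over all genes). Of 27 members of complexes II to IV, 23 were higher and none lower, and of 15 ATP synthase genes 14 were higher. Uqcrfs1, the Rieske iron-sulphur subunit of complex III, stood at 1069 and 707 CPM in Hep and 82 and 107 CPM in MEF (log2 fold change 3.23 ± 0.32, edgeR adjusted p = 8.21e-08). On library size alone, calls in respiratory chain complex I fell to 16 higher and none lower, at a median of 0.82.

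The tricarboxylic acid cycle was less uniform. Of its 18 genes 12 were higher and 1 lower, and Cs, the citrate synthase that opens the cycle, was not called at 119 and 122 CPM in Hep and 156 and 122 CPM in MEF. Idh3a, a catalytic subunit of isocitrate dehydrogenase, was not called at 43.6 and 54.1 CPM in Hep and 49.8 and 48.7 CPM in MEF, and its 95% interval lay within 2-fold. The groups overlapped for these 2 genes. Pcx, which feeds oxaloacetate into the cycle and into glucose synthesis, stood at 658 and 728 CPM in Hep and 25.6 and 18.5 CPM in MEF, a difference of 4.97 ± 0.35 (edgeR adjusted p = 1.84e-09). Me2, the mitochondrial malic enzyme, was the member that was lower, at 52.9 and 48.5 CPM in MEF and 2.08 and 3.86 CPM in Hep.

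Peroxisomes oxidise very long fatty acids, urate and hydroxy acids and break down the peroxide this makes. Of 39 peroxisomal genes 36 were higher and 1 lower, and the list took 1.54% and 1.65% of reads in Hep against 0.132% and 0.141% in MEF. Uox, urate oxidase, stood at 5067 and 3577 CPM in Hep and 0.144 and 0.143 CPM in MEF. Pex3, which starts the peroxisomal membrane, was not called at 23.9 and 21.7 CPM in Hep and 13.4 and 16.7 CPM in MEF. Agps, which makes the ether bond of plasmalogens, was lower in Hep at 92.7 and 82 CPM in MEF and 23.9 and 23.5 CPM in Hep. Its partner Gnpat was not called at 109.6 and 107 CPM in Hep and 70.6 and 72.9 CPM in MEF (edgeR adjusted p = 0.0633). The groups did not overlap for Gnpat, as for 4099 of the 7112 genes not called.

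Serine, glycine and one-carbon genes split in direction. Folate carries single-carbon units that serine supplies and that nucleotide synthesis and methylation use. Of the 31 genes 18 were higher in Hep and 12 lower. Those lower included the first 3 steps of serine synthesis. Phgdh is given above, Psat1 stood at 333 and 289 CPM in MEF and 0.857 and 0.498 CPM in Hep (log2 fold change -8.83 ± 0.50), and Psph at 19.5 and 31.4 CPM in MEF and 9.3 and 7.6 CPM in Hep (log2 fold change -1.59 ± 0.46), a call lost without Hep replicate 2 or MEF replicate 2. They also included mitochondrial folate enzymes: Mthfd2 at 131 and 123 CPM in MEF and 0.857 and 0 CPM in Hep, Mthfd1l at 50.3 and 45.8 CPM in MEF and 3.18 and 1.37 CPM in Hep and Aldh1l2 at 202 and 213 CPM in MEF and 0.612 and 0.498 CPM in Hep. In each of these genes both MEF libraries lay above both Hep libraries, and groups did not overlap in 81.6% of all genes tested.

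The 18 that were higher included enzymes of methyl group use and glycine breakdown. Bhmt, which methylates homocysteine with betaine, stood at 9684 and 11178 CPM in Hep and 0.479 and 0.856 CPM in MEF. Gnmt, which spends methyl groups on glycine, stood at 4270.0 and 5722 CPM in Hep and 0.192 and 0.428 CPM in MEF. Aldh1l1, the cytosolic relative of Aldh1l2, stood at 5876 and 4681 CPM in Hep and 19.5 and 15.6 CPM in MEF (log2 fold change 8.23 ± 0.76, edgeR adjusted p = 6.87e-07). Gldc, the glycine-cleaving decarboxylase, stood at 442 and 457 CPM in Hep and 0.527 and 0.428 CPM in MEF. Direction did not follow compartment throughout. Shmt2, the mitochondrial serine hydroxymethyltransferase, was also higher at 237 and 306 CPM in Hep and 96.1 and 81.9 CPM in MEF.

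**Figure D3:**
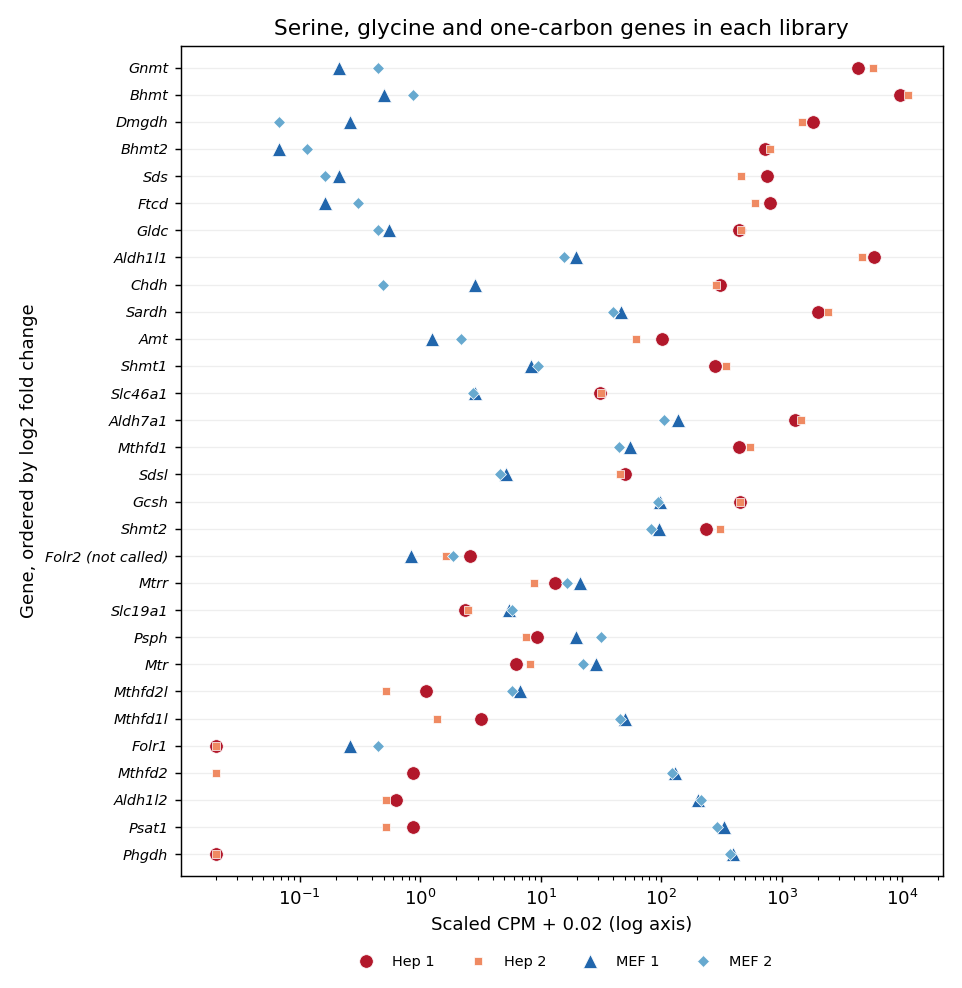
CPM (horizontal, log axis, with 0.02 added) of 30 of the 31 serine, glycine and one-carbon genes in each library, ordered by log2 fold change. Bhmt and Gnmt lie near the right edge in Hep and below 1 CPM in MEF, and Phgdh at the bottom has no count in Hep.

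Other catabolic routes were almost wholly one-sided. In the glyoxylate and taurine list 16 of 17 genes were higher and none lower. Cdo1, which commits cysteine to taurine and sulphate, stood at 5779.9 and 7565 CPM in Hep and 93 and 105 CPM in MEF. In the NAD and tryptophan list 20 of 22 were higher. Tdo2, the first step from tryptophan, stood at 2026 and 2119.7 CPM in Hep and 0.0958 and 0.0952 CPM in MEF, while Nampt, which recycles nicotinamide in most cells, was not called at 169.8 and 128 CPM in Hep and 74.3 and 106 CPM in MEF, nor was the NAD-dependent deacetylase Sirt1 at 19 and 12.3 CPM in Hep and 18.8 and 19.2 CPM in MEF. Of 20 haem genes 16 were higher. The one that was lower, Hmox1, breaks haem down and is induced by stress, at 84.2 and 70.5 CPM in MEF and 7.35 and 7.35 CPM in Hep.

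Metal handling held both directions. Of 25 genes 17 were higher and 3 lower. Hamp, the iron hormone hepcidin, stood at 851 and 484 CPM in Hep and 0 and 0.0476 CPM in MEF, and ceruloplasmin (Cp) at 1424 and 1616 CPM in Hep and 1.53 and 3.38 CPM in MEF. Mt1, a metallothionein that binds zinc and copper, was not called at 50.3 and 45.6 CPM in Hep and 66.5 and 60.5 CPM in MEF. The zinc importer Slc39a6 was lower, at 254 and 234 CPM in MEF and 7.22 and 5.11 CPM in Hep. The groups did not overlap for any of these 4 genes, Mt1 included, as in 81.6% of all genes tested.

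Hepatocytes differ along the line from portal to central vein, and genes known from each end were compared between Hep and MEF. Both lists were drawn from known hepatocyte genes, so their direction is no independent evidence, and zones themselves were not compared. All 20 periportal genes were higher, with Pck1, the gate to glucose synthesis, at 9918 and 8210.5 CPM in Hep and 0.479 and 0.904 CPM in MEF. Of 20 pericentral genes 16 were higher, with Cyp2e1, an ethanol-oxidising cytochrome, at 5279.8 and 6242 CPM in Hep and 0.622 and 1.43 CPM in MEF. Glul, glutamine synthetase, stood at 602 and 1087 CPM in Hep and 25.5 and 35.1 CPM in MEF. The 2 pericentral genes that were lower were the stem cell receptor Lgr5 at 15.8 and 89.2 CPM in MEF and 3.67 and 9.09 CPM in Hep and the amino acid carrier Slc1a4 at 76.3 and 83.5 CPM in MEF and 6.37 and 12.5 CPM in Hep, though the Lgr5 call was lost without MEF replicate 2 (edgeR adjusted p = 0.19). The Wnt target Axin2 stood at 10.5 and 17.6 CPM in Hep and 3.5 and 3.19 CPM in MEF and was not called (edgeR adjusted p = 0.0994). Its groups did not overlap, which also held for 4099 of the 7112 genes not called. Axin2 passed in edgeR on the 4 libraries alone (adjusted p = 0.00282), in limma (0.0112) and in the DESeq2 Wald test (0.0497).

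Genes that mouse livers express according to sex were read beside sex-linked transcripts. Xist, made from the inactive X chromosome, stood at 1273 and 1027 CPM in Hep and 597 and 585 CPM in MEF. Of the Y-linked genes Kdm5d, Uty and Eif2s3y had no count in any of the 4 libraries, and Ddx3y stood at 0.0952 CPM in MEF replicate 2 and 0 elsewhere. Of 26 sex-dependent liver genes 20 were higher in Hep. Cyp3a41a, a female-type cytochrome, stood at 1328 and 537 CPM with no count in MEF. Among male-type genes Cyp4a12b was not called at 0.49 and 0.249 CPM in Hep and 0.239 and 0.476 CPM in MEF, while Mup20 stood at 105 and 146 CPM. Near-identical copies share reads in these families, so a level of 1 copy is uncertain.

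Many reactions are served by 1 gene in liver and a related gene elsewhere, and 40 such pairs were compared by their share of the pair's summed FPKM, a level per transcript length. The liver form was called higher in 38 pairs, the other form lower in 23 and both together in 22, against 24.3% and 32.6% of all genes. In 29 pairs the liver form held most of the sum in both Hep libraries and less than the other form in both MEF libraries. Pklr held 93.6% and 92% in the Hep libraries and 0% and 0% in the MEF libraries of its sum with Pkm. The pairs were assembled from known liver forms, so their direction is no independent evidence.

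Structural pairs switched in the same way. Gjb1, the liver connexin, held 99.8% and 99.9% in the Hep libraries and 0.0375% and 0.0315% in the MEF libraries of its sum with Gja1. Krt18, an epithelial keratin, held 96.7% and 97.9% in the Hep libraries and 0.0362% and 0.0488% in the MEF libraries of its sum with Vim, the filament of mesenchymal cells. Ezh1 held 67.3% and 78.8% in the Hep libraries and 22% and 27.4% in the MEF libraries of its sum with Ezh2, both of which methylate histone H3 within Polycomb complexes. Ezh1 itself was called higher at a log2 fold change of 0.83 ± 0.27 (edgeR adjusted p = 0.0116), which was -0.000652 in limma on log2(FPKM + 1), and Ezh2 was called lower at -2.26 ± 0.34. The Ezh1 call was lost without Hep replicate 2.

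Not every pair had forms called in opposite directions. In 7 pairs both forms were higher in Hep, and in some of these the larger share still passed to the liver form. Pfkl, the liver phosphofructokinase, was the one liver form that was lower, at 97.7 and 65.6 CPM in MEF and 45.3 and 47.7 CPM in Hep (-0.81 ± 0.25, edgeR adjusted p = 0.00829), a call lost without Hep replicate 1 or MEF replicate 1. Its relative Pfkp had a log2 fold change of -4.11 ± 0.52, and Pfkl held 93.4% and 94.9% in the Hep libraries and 62.5% and 61.1% in the MEF libraries of their sum. Acacb, the mitochondrial-surface acetyl-CoA carboxylase, held 49.6% and 40.5% in the Hep libraries and 1.34% and 1.63% in the MEF libraries of its sum with Acaca, which was not called.

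**Figure D4:**
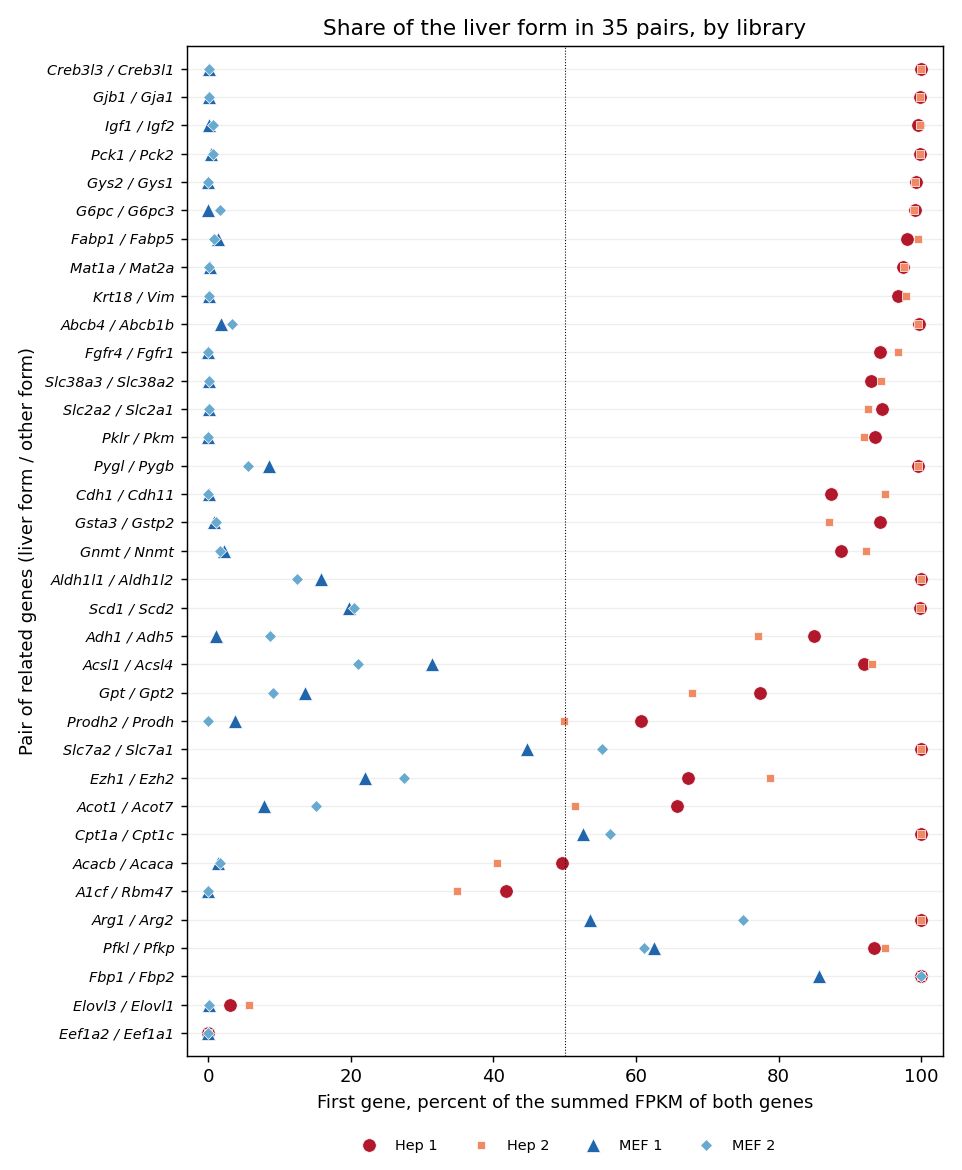
Share of the first-named gene (horizontal, percent of the summed FPKM of both genes) in each of 35 of the 40 pairs, 1 point per library. In 25 of those plotted both Hep points lie right of the dotted 50% line and both MEF points left of it, with Fbp1, Pfkl, Elovl3 and Eef1a2 among the pairs that do not cross.

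Contractile and caveolar genes were mostly lower in Hep. Actin filaments with myosin generate tension, focal adhesions pass it to the matrix and caveolae buffer the membrane against it. Of 39 actin and actomyosin genes 32 were lower and 2 higher, and the list took 0.296% and 0.305% of reads in Hep against 2.35% and 2.02% in MEF. Acta2, smooth muscle actin, stood at 681 and 664 CPM in MEF and 0.245 and 0.249 CPM in Hep. Flna, which crosslinks filaments, stood at 1955 and 1615 CPM in MEF and 14 and 11.8 CPM in Hep (log2 fold change -7.11 ± 0.64, edgeR adjusted p = 2.09e-07). Actb, the cytoplasmic actin used as a reference gene, was not called at 1702 and 1259 CPM in MEF and 1002 and 1122 CPM in Hep. Rdx, which ties actin to the bile canaliculus membrane, was one of the 2 that were higher, at 377 and 388 CPM in Hep and 189.9 and 163 CPM in MEF.

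Targets of transcription factors that respond to tension were read next. SRF with its partner MRTF reads free actin, and YAP with TEAD reads cell spreading. None of 19 SRF and MRTF genes was higher and 17 were lower, but Srf itself was not called at 76.6 and 61.8 CPM in MEF and 34.5 and 32.1 CPM in Hep. None of 24 YAP and TEAD genes was higher and 20 were lower, with Ccn2, a matrix-associated target, at 679 and 372 CPM in MEF and 6.49 and 2.99 CPM in Hep. Yap1 was not called at 244 and 256 CPM in MEF and 169 and 183 CPM in Hep. Of 9 caveolar genes 7 were lower, led among abundant ones by Cavin1 at 2207 and 1519 CPM in MEF and 13.1 and 9.71 CPM in Hep, and 1 was higher. The SRF list shares Acta2, Tagln, Flna and other genes with the actin list.

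Matrix genes were mostly lower in Hep. Collagen needs hydroxylation, a dedicated chaperone and crosslinking before it bears load. Of 29 collagen processing genes 27 were lower in Hep and none higher. Lox, which crosslinks collagen and elastin, stood at 3548 and 3068 CPM in MEF and 1.71 and 1.37 CPM in Hep, and Serpinh1, the collagen chaperone, at 1805 and 1899.6 CPM in MEF and 10.3 and 10.5 CPM in Hep. Ppib, a prolyl isomerase of the endoplasmic reticulum, and Bmp1, which trims procollagen, were the 2 not called. Of 34 elastic fibre and matricellular genes 29 were lower and 1 higher. The latter was Vtn, vitronectin, a plasma protein made in liver, at 2203 and 2259 CPM in Hep and 0.144 and 0.19 CPM in MEF. Fn1, fibronectin, which the liver also secretes into plasma, was lower at 8615 and 7354 CPM in MEF and 1901 and 2109 CPM in Hep (log2 fold change -1.99 ± 0.79, edgeR adjusted p = 0.0427). The Fn1 call was lost on leaving out any 1 of the 4 libraries. Of 26 metalloproteinase and inhibitor genes 22 were lower, with Timp2 at 2197 and 1833 CPM in MEF and 7.47 and 6.48 CPM in Hep.

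**Figure D5:**
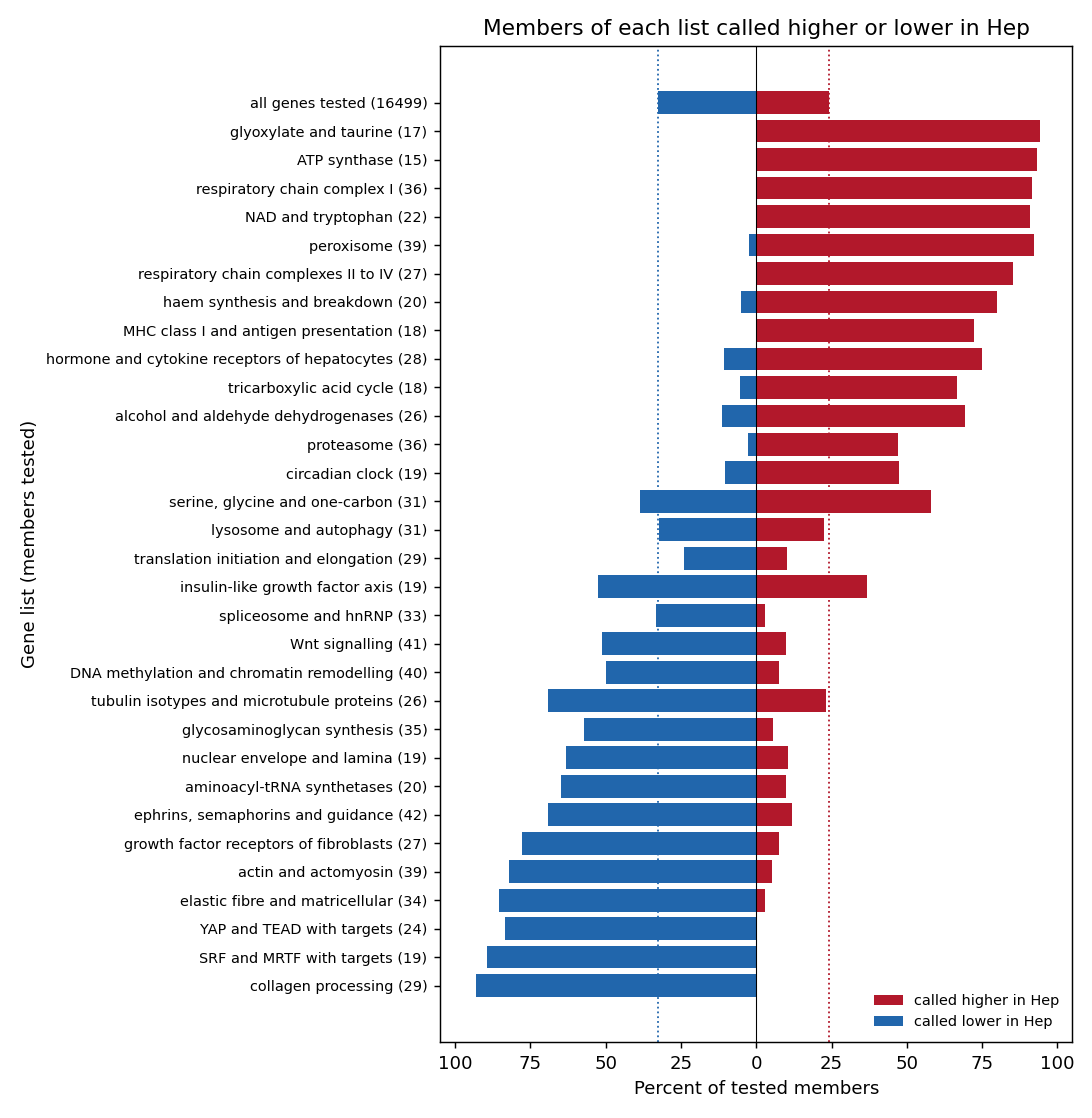
Percent of tested members called higher (right) or lower (left) in Hep for 31 gene lists, with the number tested in parentheses and all 16499 genes in the top bar. Dotted lines mark 24.3% and 32.6%, the shares over all genes, and collagen processing at the foot has 27 of 29 members lower.

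Guidance cues, known for steering axons and also used by mesenchyme, were mostly lower. Of 42 ephrin, semaphorin and other guidance genes 29 were lower and 5 higher. Slit2, a secreted repellent, stood at 428 and 451 CPM in MEF and 0.245 and 0.249 CPM in Hep. Sema4g and Sema4a, membrane-bound semaphorins, went the other way, at 315 and 364 CPM in Hep and 1.58 and 1.09 CPM in MEF and 121 and 122 CPM in Hep and 0.479 and 0.476 CPM in MEF in turn. Of 26 tubulin and microtubule genes 18 were lower, including Tuba1a at 875 and 1311 CPM in MEF and 31.3 and 28.4 CPM in Hep, and 6 were higher (3 without Hep replicate 1), including Tuba4a at 297 and 418 CPM in Hep and 19.6 and 13.2 CPM in MEF. The groups did not overlap for any of these 5 genes, as in 81.6% of all genes tested.

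Growth factor signalling exchanged its components. In the insulin-like growth factor axis, growth hormone drives the liver to secrete Igf1 with its carriers, while Igf2 acts locally before birth. Igf1 stood at 984 and 791 CPM in Hep and 6.51 and 43.3 CPM in MEF, and Igf2 at 5253 and 3806 CPM in MEF and 2.33 and 0.623 CPM in Hep (log2 fold changes 5.15 ± 0.79 and -11.58 ± 1.22). Igf1r, the receptor for both, stood at 131 and 124 CPM in MEF and 0.735 and 0.747 CPM in Hep, and Igf2r, which removes Igf2, at 1100.5 and 861 CPM in MEF and 139.9 and 112 CPM in Hep. Ghr, the growth hormone receptor, stood at 1018 and 863 CPM in Hep and 87.7 and 156 CPM in MEF, and Igfals, the carrier subunit, at 87.2 and 91.4 CPM in Hep with 1 count in MEF. Igfbp1 stood at 397 and 136 CPM and had no count in MEF. Over the axis 7 of 19 genes were higher and 10 lower.

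Receptors were listed by the cell type they are known from, so the direction of those lists is no independent evidence. Of 28 receptors named for hepatocytes 21 were higher and 3 lower. Gcgr, the glucagon receptor, stood at 328 and 334 CPM in Hep with 1 count in MEF, and Asgr1, which clears desialylated glycoproteins, at 1099 and 1433 CPM in Hep and 0.287 and 0.19 CPM in MEF. Il6st, the shared signal chain of interleukin 6 receptors, was lower at 859 and 529 CPM in MEF and 108 and 106 CPM in Hep. Of 27 receptors named for fibroblasts 21 were lower and 2 higher, with Pdgfrb at 234 and 356 CPM in MEF and 2.82 and 1.74 CPM in Hep and Fgfr3 as an exception at 49.1 and 55.3 CPM in Hep and 4.64 and 3.9 CPM in MEF. Of 41 Wnt genes 21 were lower and 4 higher. Without Hep replicate 2, MEF replicate 1 or MEF replicate 2, 2 were higher, and on library size alone 1 was. The 4 were Rnf43 and Znrf3, which remove Wnt receptors, with the transcription factors Tbx3 and Tcf7, and Tbx3 stood at 49.9 and 99.4 CPM in Hep and 14.7 and 17.2 CPM in MEF. The Tcf7 call was lost without any 1 of the 4 libraries, and that of Tbx3 without each except Hep replicate 1. Ctnnb1, which encodes beta-catenin, was lower at 1054 and 1265 CPM in MEF and 494 and 440.0 CPM in Hep (log2 fold change -1.31 ± 0.24).

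Most antigen presentation genes were higher in Hep. Class I molecules show peptides from the proteasome to T cells. Of 18 genes 13 were higher and none lower. H2-K1, a classical class I chain, stood at 2618 and 3719 CPM in Hep and 85 and 166 CPM in MEF (log2 fold change 4.66 ± 0.50, edgeR adjusted p = 6.48e-07), B2m, the shared light chain, at 956 and 1523 CPM in Hep and 146 and 212 CPM in MEF, and H2-Q10, a secreted class I chain of liver, at 5348 and 5358 CPM in Hep and 1.01 and 1.33 CPM in MEF. The B2m call was lost without MEF replicate 1 (edgeR adjusted p = 0.0562). Psmb9, a catalytic subunit of the immunoproteasome, stood at 32.4 and 41 CPM in Hep and 1.48 and 2.09 CPM in MEF. Tap1, the peptide transporter, was not called at 23.6 and 42.7 CPM in Hep and 23.4 and 29 CPM in MEF. Class I genes are close in sequence, so reads may be divided among them. The list is also expressed by the immune and endothelial cells whose markers were detected in Hep, and their part was not tested. For the proteasome as a whole 17 of 36 genes were higher and 1 lower (median log2 fold change 0.51), but on library size alone 4 were higher and 11 lower (median -0.32), so its direction flips with the scaling.

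Genes for making proteins were read by compartment, beside the 24.3% higher and 32.6% lower of all genes. Cytosolic aminoacyl-tRNA synthetases load amino acids on their transfer RNAs. Of 20 genes 13 were lower and 2 higher, with Sars at 646 and 669 CPM in MEF and 118 and 117 CPM in Hep and Nars at 719 and 755 CPM in MEF and 301 and 284 CPM in Hep. Kars was not called at 105 and 93.4 CPM in MEF and 101 and 98.4 CPM in Hep, and the 2 higher were Dars at 143 and 134 CPM in Hep and 96 and 93.5 CPM in MEF and Tars at 246 and 261 CPM in Hep and 192 and 183 CPM in MEF, whose direction flips on library size alone and in limma. The Tars call was lost without Hep replicate 1, Hep replicate 2 or MEF replicate 2. Cytosolic ribosomal proteins (Rpl and Rps symbols) gave 9 lower and none higher of 83, 54 lower on library size alone, 4 lower without Hep replicate 2 and 1 lower without MEF replicate 2. The 9 cytosolic ribosomal genes lower in the main fit were 10.8% of those tested, below the share of all genes. Translation initiation and elongation genes gave 7 lower (24.1%) and 3 higher (10.3%) of 29. Mitochondrial ribosomal proteins (Mrpl and Mrps) gave 44 higher (56.4%) and 1 lower of 78. On library size alone 17 were higher and 8 lower.

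Nuclear genes leaned lower in Hep. Of 40 genes for DNA methylation and chromatin remodelling 20 were lower and 3 higher. Hmga2, an architectural protein of embryonic and proliferating cells, stood at 611 and 364 CPM in MEF and 7.22 and 8.72 CPM in Hep, and Uhrf1, which maintains DNA methylation in dividing cells, at 57.5 and 43.3 CPM in MEF and 3.8 and 0.125 CPM in Hep. Of 19 nuclear envelope genes 12 were lower and 2 higher, with Lmna, which encodes A-type lamins, at 1151 and 904 CPM in MEF and 105 and 110.5 CPM in Hep (log2 fold change -3.25 ± 0.38, edgeR adjusted p = 9.87e-07). Nup210, a membrane pore protein, was higher at 30.7 and 35 CPM against 0.144 and 0 CPM. Kinesin genes (Kif), which include many motors of mitosis, gave 23 lower and 1 higher of 33. Spliceosome and hnRNP genes gave 11 lower (33.3%, near the share of all genes) and 1 higher (3.03%) of 33.

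Of 23 splicing regulators 7 (30.4%) were higher and 7 (30.4%) lower, near the 24.3% and 32.6% of all genes. Esrp2, an epithelial regulator, stood at 117 and 116 CPM in Hep and 2.73 and 1.05 CPM in MEF, and A1cf, a cofactor for editing Apob transcripts, at 85.2 and 75.8 CPM with no count in MEF. Rbfox2 was lower at 352 and 397 CPM in MEF and 92.1 and 73.4 CPM in Hep. Srrm4, best known for the microexons of neurons, stood at 30.7 and 19.2 CPM in Hep and 1.15 and 0.952 CPM in MEF. Both Hep libraries were above both MEF libraries, and groups did not overlap in 81.6% of all genes tested.

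Clock genes were compared without a known time of day. Of 19 genes 9 were higher and 2 lower. The output gene Dbp and the repressor gene Per2 varied between the Hep libraries. Dbp stood at 789 and 203 CPM in Hep and 46.9 and 93.5 CPM in MEF and Per2 at 51.2 and 18.2 CPM in Hep and 4.69 and 2.81 CPM in MEF. Arntl, which drives the positive limb, ran opposite to them in Hep at 6 and 20.7 CPM, against 22.4 and 27.9 CPM in MEF, and was called lower only narrowly (edgeR adjusted p = 0.048). The Arntl call was lost without Hep replicate 1 (log2 fold change -0.28, adjusted p = 0.557), without MEF replicate 1 (0.077 for adjusted p), without MEF replicate 2 (0.245), with DESeq2 size factors or Wald test and in the 4 libraries alone. The Dbp call was lost without Hep replicate 1 (adjusted p = 0.237) and without MEF replicate 1 (0.109). Clock itself was not called at 48 and 60.5 CPM in Hep and 51.4 and 39.4 CPM in MEF.

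Genes of 1 family often lie side by side, and runs of neighbours called in 1 direction were read from RefSeq gene order. The longest run upward was 20 major urinary protein genes from Mup6 to Mup21 on chromosome 4. Runs of 11 held the retinol dehydrogenases up to Hsd17b6 on chromosome 10, the Cyp2c genes from Cyp2c29 to Cyp2c70 on chromosome 19, and Ugt2b34 to Sult1e1 on chromosome 5. The longest runs downward, of 22 and 17 genes, lay in the clustered protocadherins. A run of 10 genes from Lnpk to Hoxd4 on chromosome 2 held the Hoxd cluster. Over all Hox genes 27 of 39 were lower and none higher, or 17 lower without Hep replicate 2. Of 68 protocadherin genes 58 were lower and 3 higher. A run of 10 zinc finger genes from Zfp27 to Zfp146 on chromosome 7 was also lower, at a median log2 fold change of -1.24. In the Mup, Cyp2c and clustered protocadherin genes near-identical sequences share reads, so runs of them count fewer independent measurements than genes. The calls of Mup6, Sult1e1 and Zfp27, which end their runs, were each lost on leaving out at least 1 library, Hep replicate 1 for Mup6, any of the 4 for Sult1e1 and each except Hep replicate 1 for Zfp27.

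A set of genes kept near-equal levels on this scale. For 1936 genes (11.7%) the 95% interval of the fold lay within 2-fold in either direction. Eef1a1, the elongation factor that brings transfer RNAs to the ribosome, stood at 7511 and 6954 CPM in Hep and 7272 and 7457 CPM in MEF (-0.03 ± 0.26). Hsp90ab1, a cytosolic chaperone, stood at 2951 and 2649.6 CPM in Hep and 2826 and 2299.9 CPM in MEF, Vcp, which extracts proteins for degradation, at 1144 and 1237 CPM in Hep and 1181 and 977 CPM in MEF, and the RNA helicase Ddx5 at 1041 and 1041 CPM in Hep and 977 and 940.4 CPM in MEF. The groups overlapped for Eef1a1, Hsp90ab1 and Vcp, and for Ddx5 both Hep libraries lay above both MEF libraries. On library size alone and in limma the fold changes of Hsp90ab1, Vcp and Ddx5 turned negative, and these genes were called lower. Eef1a1 was also called lower in both settings, at a log2 fold change of -0.85 in each. The near-equal levels of these 4 genes thus hold on the TMM scale and not on library size alone.

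Transcript forms could be compared only coarsely, since the deposited counts of a gene's transcripts were often close to equal. In genes with exactly 2 transcripts and at least 500 counts, the leading transcript held a median of 52.5% and 52.2% in Hep and 52.5% and 52.3% in MEF. Of 1330 genes with several transcripts and at least 200 counts in every library, 1 had a transcript whose share differed by at least 50 points between the groups. That gene was Il1rap, the accessory chain of the interleukin 1 receptor, at 155 and 214 CPM in Hep and 21.4 and 27.1 CPM in MEF (2.93 ± 0.60, edgeR adjusted p = 0.000536). Its 2352-base transcript held 56.4% and 68.9% of the gene's counts in Hep and 7.61% and 5.45% in MEF. Its 4576-base transcript held 24.8% and 16.1% in Hep and 75.4% and 81.0% in MEF. The shares of the 2 groups did not overlap for either transcript.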

How the data were processed

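Poly(A) RNA from 28 mouse libraries in 9 groups was sequenced with a stranded kit, per the labels' protocols. BWA 0.7.12 and the build mm9 are named, per the submitters' processing notes. The quantifier is not given in the sources used here. The authors deposited 3 values for each of 30710 transcripts, namely expected counts, FPKM and the fraction of the library. Expected counts were summed per gene symbol (30190 transcripts named through RefSeq, 181 through GENCODE, 339 unnamed), rounded and fitted with edgeR 4.0.16 in R 4.3.3. The fit used filterByExpr, TMM, robust quasi-likelihood and a group term. All 28 libraries entered it, because 2 libraries a group give little spread of their own, and 19 degrees of freedom remained. FPKM served isozyme shares and a limma 3.58.1 alternative, and fractions were not used. Members and lists were chosen with earlier results of these data known. Lists cover 1704 genes, of which 1640 were tested. They are described by counts without a set test. Genes were eligible to be named as the 15 largest changes or 15 most abundant called genes in a direction, by fold, level or absence of a call within a list, or as members of an isozyme pair, run of neighbours or transcript switch, or among the 10 most abundant genes with an interval within 2-fold. Fga, Hnf4a, Shmt2, Gldc, Psph, Xist and the Y-linked genes fall outside that rule and were chosen after their values were seen. Assigned reads ran from 14592820 to 51743266 per library, and a group at 0 counts was set at a floor of 3 counts over the group (0.185 CPM in Hep, 0.0716 CPM in MEF), which covers counting error only. The model was checked on simulated data. Alternatives were DESeq2 1.42.0 size factors and Wald test, other scalings, no filter, 1 transcript per gene, the 4 libraries alone, a replicate block, each library left out, and a 2-fold minimum. Some genes that enter the counts are not reported here by name.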

Additional observations from a re-analysis of the deposited data

How the results depend on the processing

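The main analysis called 4005 genes higher and 5382 lower in Hep. On library size alone 2525 were higher and 8182 lower, in limma on log2(FPKM + 1) 2350 were higher, and with a 2-fold minimum in edgeR's glmTreat 2634 were higher and 3565 lower. Leaving out each library in turn gave between 3362 and 3524 higher and between 4205 and 4533 lower, the lone remaining library being assumed to vary like the other groups. Labels give both groups replicates 1 and 2, and the fit with the replicate block called 4185 higher and 5662 lower, of which 9271 were main calls in the same direction. Deviations of same-numbered libraries correlated at 0.0152, so the numbers were not taken to pair samples. DESeq2 size factors moved the median of all genes by 0.16. With the 4 libraries alone, 14218 genes were tested, 4484 called higher and 5164 lower. Among named genes with a call in the main analysis or the alternative, directions reversed on library size alone and in limma, with log2 fold changes in that order of -0.27 and -0.26 for Dars, -0.39 and -0.39 for Tars, -0.81 and -0.78 for Kars, -0.70 and -0.70 for Ddx5, -0.70 and -0.69 for Hsp90ab1 and -0.68 and -0.67 for Vcp. Ezh1 reversed in limma, at -0.000652. The cause was not tested. Acaca, Bmp1, Clock, Cs, Cyp4a12b, Dcn, Eef1a1, Gnpat, Idh3a, Kars, Nampt, Pex3, Ppib, Sirt1 and Tap1 changed sign under at least 1 alternative with no call in either, as for Bmp1 without MEF replicate 2. Actb, Axin2, Bmp1, Cs, Eef1a1, Gnpat, Idh3a, Kars, Nampt, Pex3, Ppib, Sirt1, Srf and Yap1, not called here, were called under at least 1 alternative. Actb, Bmp1, Cs, Eef1a1, Idh3a, Kars, Sirt1, Srf and Yap1 were called lower both on library size alone and in limma. At these depths a group with no count allows a level of up to 0.185 CPM in Hep and 0.0716 CPM in MEF, for counting error only.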
